A study of Mus musculus with 8 samples.

Results

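Cell division in the ethanol-fed mouse liver was followed through 33 genes of the cell cycle, among 55450 gene rows measured. They were taken by symbol from each liver's table of expected counts and TPM (transcript abundance scaled to gene length and to a fixed total per liver), and all 33 were present. By role they comprised 3 regulators of the G1 phase, 14 genes of entry into S phase and DNA replication, and 16 genes of mitosis. RNA came from 8 livers of 10-week-old, weight-matched mice. The 4 controls (Cre-) carried floxed Cebpa alleles (Cebpa fl/fl), and the 4 knockouts (Cebpa ΔHep, Cre+) lacked Cebpa in hepatocytes. All mice had 5 days on a liquid control diet followed by ethanol, 5% by volume of a liquid diet, over 4 weeks, so both groups carry the ethanol exposure and livers without ethanol are not analysed here. The labels do not name the driver of Cre. They number the livers within each group without saying which animal each came from, so the p-values measure the spread between these 8 samples.

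Adult hepatocytes are mostly quiescent and re-enter the cycle after tissue loss or injury. Cyclin D with Cdk4 starts the phosphorylation of RB family proteins, which frees E2F factors to switch on the genes of nucleotide supply and replication licensing. Cyclin E with Cdk2 drives entry into S phase. The later mitotic genes are held down by the DREAM complex and switched on by its MuvB core with B-Myb and Foxm1, through CHR elements. C/EBP alpha, the product of Cebpa, is a transcription factor of differentiated hepatocytes that is also known to restrain cell division.

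The promoters of the S phase and mitotic genes held different letters. RefSeq promoter sequences (GRCm38.p6, 250 bases before to 50 bases after each start) matched 26 of the 33 genes. Ccnd1, Mcm4, Ccna2, Ccne2, Foxm1, Aurkb and Kif20a had none. Both strands were searched for E2F sites (TTTCCCGC, TTTGGCGC, TTTCGCGC or TTTGCCGC), the CHR element TTTGAA, the CCAAT box bound by NF-Y (CCAAT) and a C/EBP site (TTGCNNAA). Of 71 matches, 2 overlapped a match of another kind. The 8 stretches below show the 2 S phase genes with the most E2F matches before the start, the 2 members of smallest p, and 4 mitotic genes with CCAAT boxes. Each ends before the first annotated base of its gene in GENCODE M21, runs 5′ to 3′, and has matches to the E2F, CHR and CCAAT letters, on either strand, in capitals.
Mcm5 (chr8:75109349-75109508, plus strand): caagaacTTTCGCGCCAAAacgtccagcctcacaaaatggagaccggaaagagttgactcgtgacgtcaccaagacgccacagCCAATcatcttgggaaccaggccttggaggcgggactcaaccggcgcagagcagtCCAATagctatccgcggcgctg
Mcm6 (chr1:128359706-128359865, minus strand): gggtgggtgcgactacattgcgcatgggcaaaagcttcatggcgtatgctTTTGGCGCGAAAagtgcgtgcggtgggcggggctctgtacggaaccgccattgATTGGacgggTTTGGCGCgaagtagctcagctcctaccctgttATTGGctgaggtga
Ccne1 (chr7:38107535-38107650, minus strand): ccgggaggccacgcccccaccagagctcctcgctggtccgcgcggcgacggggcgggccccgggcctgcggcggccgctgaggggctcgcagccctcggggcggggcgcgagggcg
Rrm2 (chr12:24708094-24708240, plus strand): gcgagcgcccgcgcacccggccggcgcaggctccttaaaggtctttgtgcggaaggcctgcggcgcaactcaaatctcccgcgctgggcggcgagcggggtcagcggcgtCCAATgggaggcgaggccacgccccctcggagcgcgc
Ccnb2 (chr9:70421555-70421714, minus strand): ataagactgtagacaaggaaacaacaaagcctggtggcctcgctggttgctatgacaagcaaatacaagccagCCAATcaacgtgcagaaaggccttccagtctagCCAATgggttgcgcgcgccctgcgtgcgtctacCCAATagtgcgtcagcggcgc
Top2a (chr11:99024190-99024349, minus strand): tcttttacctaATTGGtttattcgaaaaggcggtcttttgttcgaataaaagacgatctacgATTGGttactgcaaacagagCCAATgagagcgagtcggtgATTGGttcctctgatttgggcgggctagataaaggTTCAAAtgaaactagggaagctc
Cdc20 (chr4:118437353-118437503, minus strand): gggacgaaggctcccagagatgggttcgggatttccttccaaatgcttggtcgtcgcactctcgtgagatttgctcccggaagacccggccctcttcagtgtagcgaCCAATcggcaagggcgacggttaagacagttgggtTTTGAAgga
Kif11 (chr19:37376222-37376381, plus strand): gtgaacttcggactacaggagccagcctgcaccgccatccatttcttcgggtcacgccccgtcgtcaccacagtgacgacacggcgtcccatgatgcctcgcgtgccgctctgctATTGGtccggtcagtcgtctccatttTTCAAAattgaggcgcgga

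E2F letters were present in 5 of 12 S phase promoters (Cdk2, Mcm3, Mcm5, Mcm6 and Mcm7), or 41.7%, and in 1 of 12 mitotic promoters (Cdk1), or 8.33%. Over all 27025 genes with a promoter the share was 2.6%. CHR letters showed the opposite arrangement, with 2 of 12 S phase promoters (16.7%) and 9 of 12 mitotic promoters (75%) against 20.2% of all. CCAAT boxes were in 75% of the S phase and 91.7% of the mitotic promoters against 41.1% of all. In Mcm5 and Mcm6 forward and reverse E2F letters interlock in a single block of capitals. The promoter of Ccnb2, which encodes cyclin B2, holds 3 CCAAT boxes spaced 33 and 33 bases apart. The C/EBP letters were in 2 of 12 S phase promoters (Mcm3 and Pcna) and 0 of 12 mitotic promoters, against 12.2% of all. The stretch printed for Ccne1 holds none of the E2F, CHR or CCAAT letters, and that for Rrm2 holds 1 CCAAT box. These are matches of letters in a fixed window and do not show binding.

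**Figure D1:**
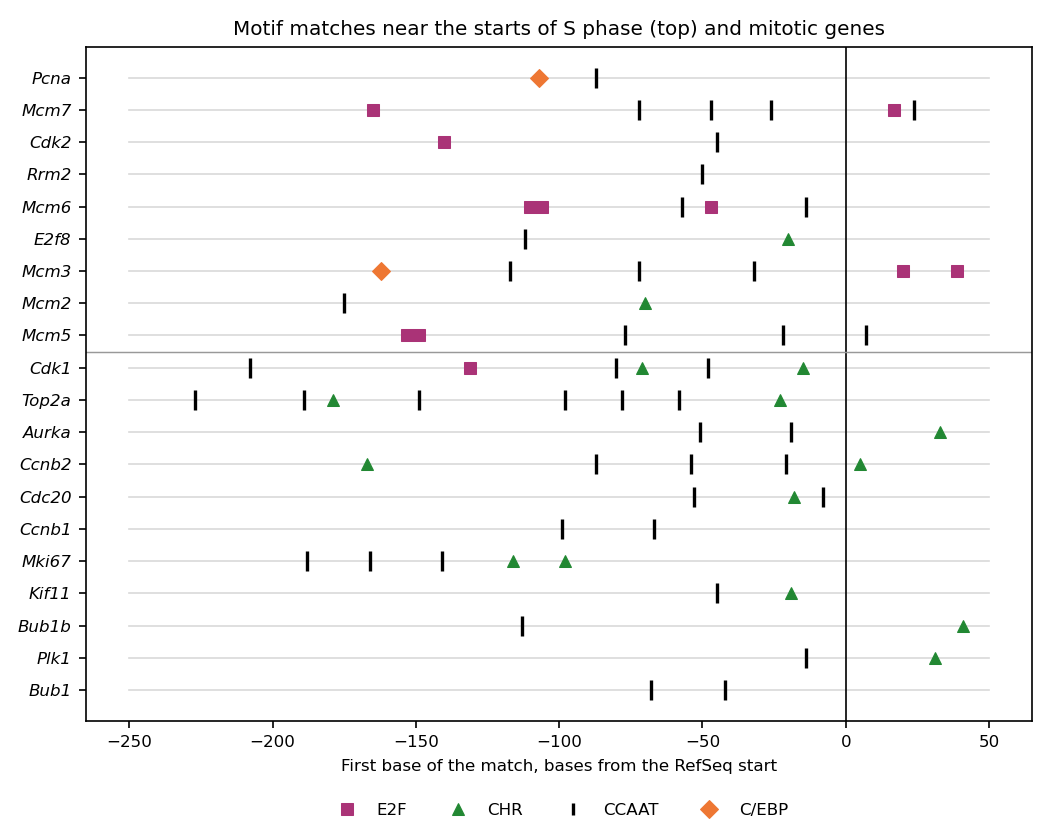
Positions of motif matches around the RefSeq start (vertical line at 0, x axis in bases) for the S phase genes (above the grey line) and mitotic genes with at least 1 match. Squares mark E2F, triangles CHR, bars CCAAT and diamonds C/EBP letters. E2F squares sit mostly in the upper block (5 of 12 S phase promoters) and CHR triangles in the lower block (9 of 12 mitotic promoters).

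Expected counts summed to 21048350 in control 2, the shallowest library, and 28148744 in knockout 4, the deepest, and 1 count was worth 0.0341 to 0.0485 CPM (counts scaled to library size with TMM factors, not to gene length). Cebpa, the targeted gene (chr7:35119293-35121928, plus strand, mm10), was at 319.9, 263.6, 269.3 and 320.3 CPM in controls 1 to 4, against 5.44, 9.26, 7.31 and 6.24 CPM in knockouts 1 to 4. It was 41.5-fold lower in the knockouts (log2 fold change -5.37, SE 0.18, edgeR adjusted p = 4.78e-07), and its values matched the genotype label of every liver. The hepatocyte marker list, led by Alb and Apoa1, summed to between 67220 and 95709 TPM in each liver. Control 2 and knockout 4 stood apart from their groups in earlier work on these data, and without both of them 0 members were called.

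None of the members passed an edgeR adjusted p of 0.05 between knockouts and controls, where 2.06% of the 13303 tested genes did (0.849% higher and 1.21% lower in the knockouts). Counts allowed a test of 31 members, all but the mitotic kinases Plk1 and Bub1. The lowest adjusted p was 0.131, for Ccne1. Unadjusted p lay below 0.05 for 2 members, Ccne1 and Rrm2, both lower in the knockouts, against 18.5% of all tested genes. On CPM the groups did not overlap for 1 member, Ccne1, against 11.4% of tested genes. DESeq2 called 1 member, Ccne1, against 6.45% of the genes it tested. The members' counts were thus no higher than the background shares. Whole liver RNA cannot tell a change in the number of cycling cells from a change in RNA per cell.

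A total of 23 of the 31 tested members had a positive log2 fold change (knockout over control), against 50.7% of all tested genes. Among mitotic genes 13 of 14 were positive, with a median log2 fold change of 0.186. Among S phase genes 9 of 14 were positive, with a median of 0.017. The median over all tested genes was 0.004. RLE scaling kept the sign of all 31 members and scaling by library size alone that of 28. Leaving out knockout 2 kept that of 15, the fewest for any liver, and left the mitotic median at -0.209. Leaving out control 2, control 4 or knockout 1 kept the sign of 21, 23 and 25 members, and leaving out any other liver that of 28 or 29.

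**Figure D2:**
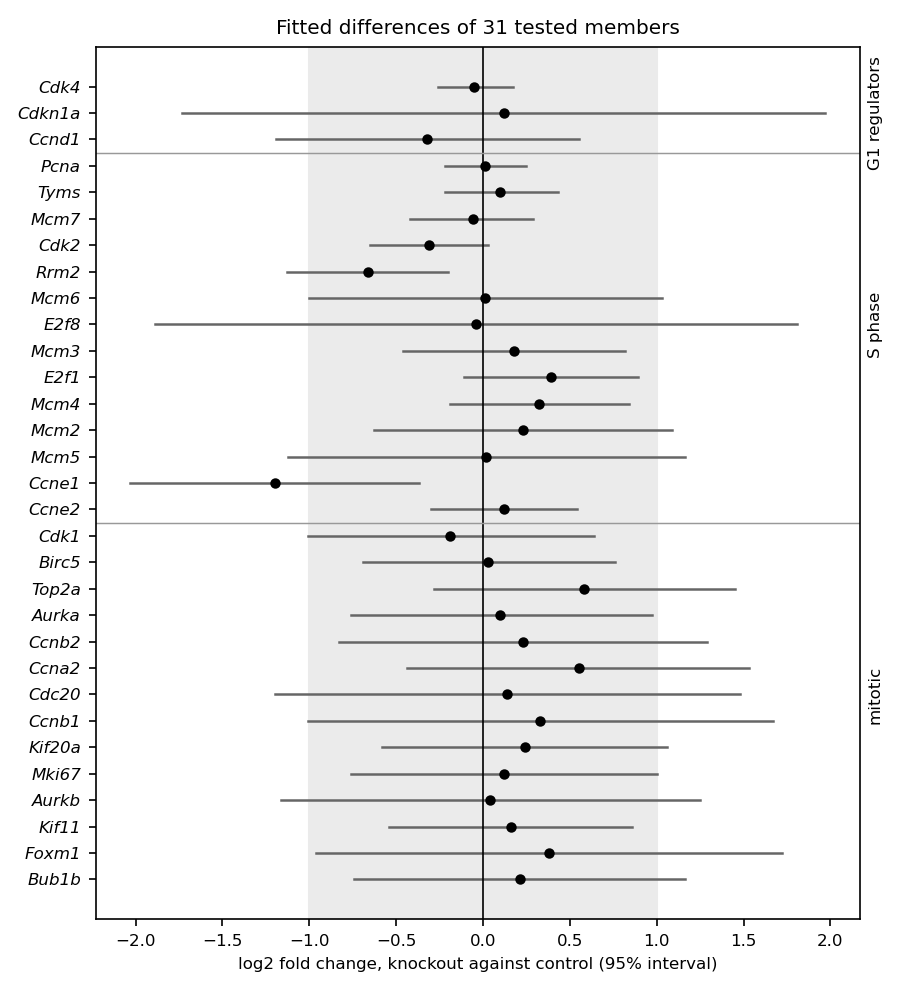
Fitted log2 fold changes, knockout against control (x axis), for the 31 tested members by role, with points for the estimate and bars for the 95% interval. Grey shading marks a difference of less than 2-fold either way. The bars of Ccne1 (-2.03 to -0.37) and Rrm2 (-1.13 to -0.20) are the ones that do not cross 0.

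The 3 G1 regulators overlapped between the groups, and the spread among livers was wide for Ccnd1 and Cdkn1a and narrow for Cdk4. Cdk4, the kinase that partners D cyclins, had the highest mean TPM of all members, 33.3 ± 4.56 in controls and 36.4 ± 4.49 in knockouts (SD, n = 4). Its CPM was 20.8, 25.2, 20.9 and 22 in controls and 21, 22.1, 19.1 and 23.7 in knockouts. The livers of both groups lay within one narrow band, and the log2 fold change of -0.05 had a 95% interval of -0.26 to 0.17 (edgeR adjusted p = 0.818). Cdk4 overlaps Tspan31 on the other strand, and whether the authors' counting used strand is not given in the sources used here.

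Ccnd1, which encodes cyclin D1, the growth factor sensor of G1, was the least abundant of the 3 at 11.6 ± 3.75 and 10 ± 4.93 TPM (SD, n = 4). Its CPM was 17.7, 37.5, 37.8 and 37.7 in controls 1 to 4 and 26.0, 41.9, 24.4 and 12.5 in knockouts 1 to 4. Controls 2, 3 and 4 were nearly identical and control 1 was low, while the knockouts spanned a 3.35-fold range that took in all controls. The log2 fold change was -0.32 (95% interval -1.19 to 0.55, edgeR adjusted p = 0.686). Cdkn1a encodes p21, an inhibitor of cyclin-dependent kinases and a target of p53. It was at 8.58, 3.74, 60.3 and 26.0 CPM in controls, against 32.5, 16.6, 23.7 and 34.8 CPM in knockouts. The controls spread over 16.1-fold and the knockouts over 2.1-fold, inside the range of the controls. The log2 fold change of Cdkn1a was 0.12 (95% interval -1.73 to 1.97), and it moved from -0.24 without control 2 to 1.07 without control 3.

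Among the S phase genes Ccne1 and Rrm2 had the lowest p-values, and both were lower in the knockouts without passing the edgeR threshold. Ccne1 (chr7:38097984-38107534, minus strand, overlapping no other annotated gene) encodes cyclin E1, the activator of Cdk2 at the start of S phase. Its RNA stood at 2.39, 5.14, 2.15 and 2.04 CPM in controls 1 to 4, against 0.719, 1.82, 1.10 and 1.40 CPM in knockouts 1 to 4. On CPM every knockout was below every control, and control 2 was more than double any other control. On TPM the groups overlapped, with knockout 2 at 1.78 and control 4 at 1.59. The means were 2.93 ± 1.48 and 1.26 ± 0.466 CPM (SD, n = 4), 2.3-fold lower in the knockouts (log2 fold change -1.20, SE 0.37, 95% interval -2.03 to -0.37, edgeR adjusted p = 0.131). A two-sided exact permutation test over the 70 splits of the livers gave p = 0.0286, the smallest that 4 against 4 allows. That value follows from the lack of overlap on CPM, which 11.4% of all tested genes shared, so it adds no separate support. It was not adjusted for the choice of Ccne1 among the members. DESeq2 placed Ccne1 past the threshold (adjusted p = 0.034). Without control 2 the log2 fold change was -0.79.

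Rrm2 encodes the small subunit of ribonucleotide reductase, which makes deoxynucleotides in S phase (chr12:24708241-24714146, plus strand). It was at 11.8, 7.96, 14.3 and 9.54 CPM in controls, against 7.91, 7.99, 4.75 and 6.82 CPM in knockouts. The groups met only at control 2, which lay between knockouts 1 and 2. The level was 1.59-fold lower in the knockouts (log2 fold change -0.66, SE 0.21, edgeR adjusted p = 0.137, DESeq2 adjusted p = 0.0528), with an exact permutation p = 0.0571. When each liver was left out in turn the log2 fold change stayed between -0.79 and -0.51.

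The other enzyme, clamp, kinase and cyclin genes of S phase overlapped between the groups. Pcna, the sliding clamp of DNA polymerases, was the most abundant of them at 23.6 ± 2.85 TPM in controls and 25.8 ± 2.63 TPM in knockouts (SD, n = 4). Its CPM was 28.7, 25.0, 24.9 and 21.2 in controls and 27.2, 26.7, 22.7 and 24.1 in knockouts, a log2 fold change of 0.01 with an interval of -0.22 to 0.25. Reads of Pcna can be shared with the processed pseudogene Pcna-ps2, which was assigned at most 7.93 expected counts in a liver against 488 or more for Pcna. Tyms, thymidylate synthase, was at 5.6 ± 0.802 and 6.02 ± 0.634 CPM (SD, n = 4), a log2 fold change of 0.10 (-0.22 to 0.43). Cdk2, the kinase partner of cyclins E and A, was at 9.75, 13.2, 10.7 and 10.8 CPM in controls, against 8.27, 6.92, 10.2 and 10.5 CPM in knockouts. The groups of Cdk2 overlapped, with a log2 fold change of -0.31 (-0.65 to 0.03, edgeR adjusted p = 0.315). Ccne2, for the second cyclin E, was the S phase gene of lowest TPM, 1.70 ± 0.333 in controls and 1.64 ± 0.328 in knockouts (SD, n = 4). Its CPM was 2.75, 2.57, 3.45 and 2.91 in controls and 3.77, 3.52, 3.06 and 2.39 in knockouts, so that it did not follow Ccne1 (log2 fold change 0.12, -0.30 to 0.54). The difference between the 2 cyclin E genes was not tested.

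The 6 genes of the MCM helicase, which unwinds DNA at replication forks, varied more between livers than between genotypes. Their log2 fold changes ran from -0.06 for Mcm7 to 0.32 for Mcm4, with edgeR adjusted p from 0.488 to 0.991. Mcm5 was at 3.48, 1.75, 6.07 and 2.99 CPM in controls 1 to 4, against 4.81, 6.25, 1.74 and 1.77 CPM in knockouts 1 to 4. Control 3 and knockouts 1 and 2 were the high livers, and control 2 and knockouts 3 and 4 the low ones. Mcm6 gave a like picture, with 7.90, 4.66, 10.4 and 5.42 CPM in controls, against 10.3, 10.8, 2.74 and 4.74 CPM in knockouts. Mcm2 was at 3.43, 3.25, 6.07 and 3.30 CPM in controls, against 8.04, 5.42, 2.38 and 3.07 CPM in knockouts. Mcm3 and Mcm4 had means of 4.07 ± 1.55 and 4.84 ± 1.30 CPM in controls, against 4.62 ± 1.18 and 6.07 ± 1.58 CPM in knockouts (SD, n = 4). Mcm7, which overlaps Cops6 and Ap4m1 on the other strand and holds 3 microRNA genes (Mir25, Mir93 and Mir106b), varied least of the 6, between 8.68 and 14.1 CPM.

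The 2 E2F genes behaved differently from each other across livers. E2f1, an activator of S phase genes, was at 2.93, 3.35, 5.01 and 3.12 CPM in controls, against 5.57, 5.10, 5.07 and 3.24 CPM in knockouts. Knockouts 1, 2 and 3 were above all controls and knockout 4 was among them (log2 fold change 0.39, -0.11 to 0.89, edgeR adjusted p = 0.39). E2f8 encodes an atypical E2F that represses these genes and is known for its part in hepatocyte polyploidy. It was at 7.09, 4.56, 9.10 and 10.5 CPM in controls, against 2.29, 4.75, 1.69 and 21.2 CPM in knockouts. Knockout 4 was the highest of all 8 livers, while knockouts 1 and 3 were the lowest, a 12.5-fold range within the group. The log2 fold change was -0.04 with all livers and -1.41 without knockout 4 (edgeR adjusted p = 0.104). E2f8 overlaps Gm2788 on the other strand.

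**Figure D3:**
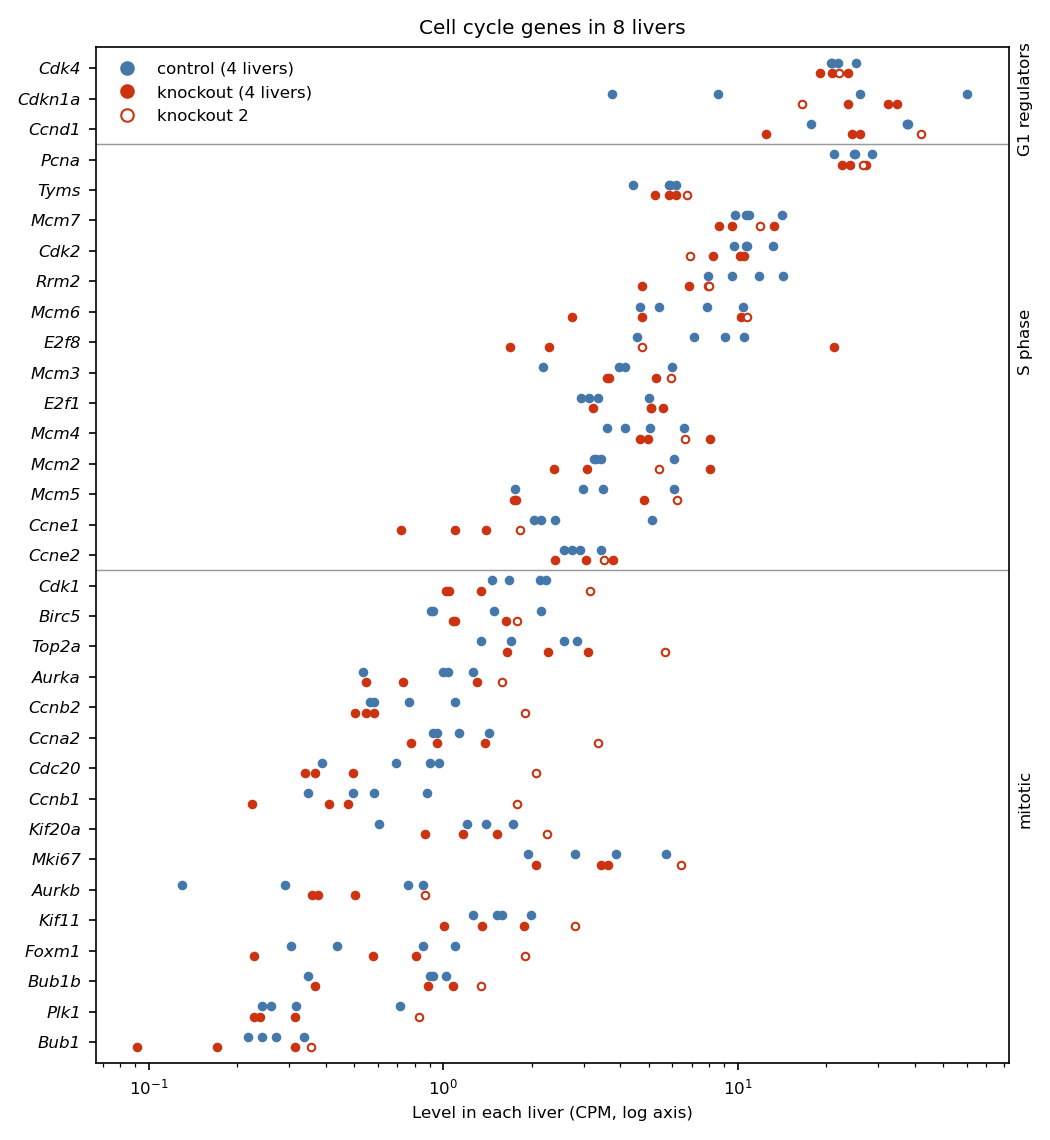
Level of each of the 33 genes in each liver (x axis, CPM on a log axis), with blue points for the 4 controls, red points for the 4 knockouts and an open red circle for knockout 2. Genes are ordered by mean TPM within each role. CPM is not scaled to gene length, so points compare livers within a row. The groups separate in the row of Ccne1 alone, and the open circle is the rightmost point in 15 of the 16 mitotic rows.

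Mitotic genes had low levels in these livers and none passed the test, while 1 liver was high in nearly all of them. Their mean TPM ran from 0.189 for Bub1 to 3.46 for Cdk1, below Cdk4 and Pcna at 34.9 and 24.7. Expected counts of single mitotic genes were between 2 and 163 in a liver. Knockout 2 had the highest CPM of all 8 livers for 15 of the 16 genes and the highest of the knockouts for 16 of 16. The exception was Birc5 (survivin, a subunit of the chromosomal passenger complex), at 2.15 CPM in control 3 and 1.78 CPM in knockout 2. Control 3 was the highest control for 12 of the 16 and for 9 of the 14 S phase genes. Control 4 was the lowest control for 12 of the 16, and knockout 3 the lowest knockout for 10.

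Cdk1, the kinase that drives mitotic entry, was the most abundant mitotic gene per length and the 1 with a negative log2 fold change. Its CPM was 1.67, 2.14, 2.23 and 1.47 in controls 1 to 4 and 1.35, 3.16, 1.05 and 1.02 in knockouts 1 to 4. Knockout 2 was above every control while the other knockouts were below every control. The log2 fold change was -0.19 (-1.01 to 0.64, edgeR adjusted p = 0.818) and -0.72 without knockout 2. Top2a encodes topoisomerase II alpha, which untangles sister chromatids, and had the lowest p of the mitotic genes. It was at 2.84, 1.70, 2.57 and 1.34 CPM in controls, against 3.10, 5.66, 1.65 and 2.28 CPM in knockouts. Its log2 fold change of 0.58 (-0.28 to 1.45, edgeR adjusted p = 0.456) was 0.15 without knockout 2.

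The cyclins of mitosis followed the same livers. Ccnb2 was at 0.767, 0.582, 1.10 and 0.564 CPM in controls, against 0.584, 1.90, 0.503 and 0.546 CPM in knockouts. The pseudogene Ccnb2-ps was assigned 5, 0, 5 and 0 expected counts in controls and 1, 2, 2 and 1 in knockouts, against 17, 12, 26 and 13 and 13, 48, 11 and 16 for Ccnb2. Counts of Ccnb2 were whole in all 8 livers. Ccnb1, for cyclin B1, was at 0.496, 0.582, 0.885 and 0.347 CPM in controls, against 0.225, 1.78, 0.411 and 0.477 CPM in knockouts. In both, knockout 2 stood well above the other 7 livers and the other knockouts lay within or below the range of the controls. Ccna2, for cyclin A2 of S phase and early mitosis, was at 1.13, 0.922, 1.43 and 0.954 CPM in controls, against 1.39, 3.36, 0.777 and 0.955 CPM in knockouts. Their log2 fold changes of 0.23, 0.33 and 0.55 became -0.47, -0.61 and -0.10 without knockout 2, and no edgeR adjusted p was below 0.542 with all livers.

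The markers and regulators of dividing cells had the same top livers. Mki67, the proliferation marker Ki-67, was at 3.88, 2.81, 5.73 and 1.95 CPM in controls, against 3.64, 6.45, 2.06 and 3.44 CPM in knockouts. Control 3 and knockout 2 were the highest livers and control 4 and knockout 3 the lowest (log2 fold change 0.12, -0.76 to 1.00, edgeR adjusted p = 0.903). Foxm1, a transcription factor of the mitotic programme, was at 0.858, 0.437, 1.10 and 0.304 CPM in controls, against 0.809, 1.90, 0.228 and 0.580 CPM in knockouts, an 8.31-fold range among the knockouts. Cdc20, the activator of the anaphase-promoting complex, was at 0.903, 0.388, 0.969 and 0.694 CPM in controls, against 0.494, 2.06, 0.366 and 0.341 CPM in knockouts. The log2 fold changes of Foxm1 and Cdc20 were 0.38 and 0.14 with all livers and -0.32 and -0.89 without knockout 2.

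The kinase, checkpoint and motor genes had low counts and wide intervals. Aurka and Aurkb, the Aurora kinases of the spindle poles and the chromosomal passenger complex, had log2 fold changes of 0.10 (-0.76 to 0.97) and 0.04 (-1.16 to 1.25). Bub1b, a spindle checkpoint kinase, was at 0.21 (-0.74 to 1.16) and Birc5 at 0.03 (-0.69 to 0.76). Kif11 and Kif20a, the mitotic kinesins, were at 0.16 (-0.54 to 0.86) and 0.24 (-0.58 to 1.06). Only for Birc5, Kif11 and Aurka of these 6 did the interval stay within a 2-fold difference either way. Plk1, the polo-like kinase, was not tested and was at 0.316, 0.243, 0.716 and 0.260 CPM in controls, against 0.314, 0.831, 0.228 and 0.239 CPM in knockouts. Bub1, the checkpoint kinase of lowest TPM, had 6, 5, 8 and 5 expected counts in controls and 7, 9, 2 and 5 in knockouts, which cannot show a difference at this depth.

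**Figure D4:**
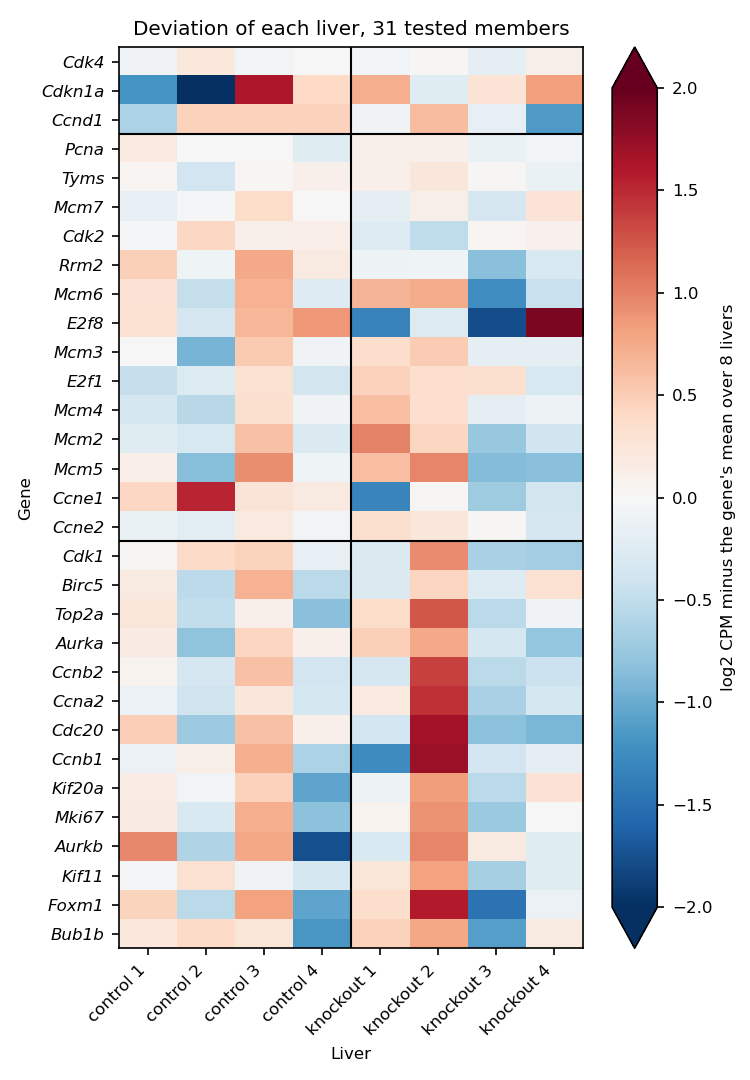
Deviation of each liver from the mean of its gene (colour, log2 CPM minus the mean over 8 livers, from blue below to red above) for the 31 tested members. Columns are livers, and lines separate controls from knockouts and the 3 roles from each other. In the lowest block the column of knockout 2 is the reddest in every row but Birc5 and the columns of knockout 3 and control 4 are mostly blue, while the S phase block has no such single column.

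Summed over all 16 genes, mitotic RNA was 11.8, 10.6, 16.3 and 9.86 TPM in controls and 12.7, 26.0, 9.32 and 10.6 TPM in knockouts. The group means were 12.1 ± 2.91 and 14.7 ± 7.69 TPM (SD, n = 4), and the knockouts apart from knockout 2 lay within or just below the controls. Summed S phase RNA was 73.1, 66.6, 84.8 and 65.3 TPM in controls and 77.1, 84.7, 60.6 and 74.2 TPM in knockouts. Knockout 2 was thus at the level of control 3 in S phase RNA and above it in mitotic RNA.

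Knockout 2 was also the highest liver for the summed markers of several other cell types. Stellate cell and fibroblast markers summed to 126.4 TPM there, 38.7 to 45.2 TPM in the other knockouts and 22.5 to 40.8 TPM in controls. Of the 8, 0 were called by edgeR and 4 had an unadjusted p below 0.05, all higher. Over all tested genes 2.06% were called and 18.5% had an unadjusted p below 0.05. Col3a1, for type III collagen, was at 129.2 CPM in knockout 2 and 14.8 to 32.5 CPM in the other livers. Cholangiocyte and ductular markers summed to 416.0 TPM in knockout 2, 119.9 to 216.4 TPM in the other knockouts and 24.9 to 65.2 TPM in controls. Of the 6 tested of those 8 markers, Epcam, Krt19 and Spp1 were higher in the knockouts (2.8-, 3.26- and 6.02-fold, edgeR adjusted p = 0.0216, 0.0467 and 0.0359). Cftr had 0 counts in some livers.

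The immune and endothelial lists had the same top liver. Macrophage and Kupffer cell markers summed to 328.0 TPM in knockout 2, 187.3 to 269.6 TPM in the other knockouts and 107.3 to 226.9 TPM in controls, with 0 of 9 called by edgeR. Endothelial markers summed to 126.8 TPM, 87.8 to 105.1 TPM and 70.9 to 92.4 TPM in that order, with 0 of 8 called. Lymphocyte markers summed to 6.90 TPM in knockout 2, 3.26 to 4.81 TPM in the other knockouts and 2.01 to 4.22 TPM in controls, and 1 of 9 could be tested. Neutrophil markers summed to 4.68 TPM in knockout 2 and at most 3.19 TPM elsewhere, none could be tested, and Ly6g and Mpo had 0 counts in all livers. Hepatocyte markers summed to 95709 TPM in knockout 2, the highest liver, while by mean log2 CPM of the same 8 genes it was the lowest. That mean was 11.8 in knockout 2, between 11.82 and 12.01 in knockouts 1, 3 and 4, and between 11.93 and 12.09 in controls. Erythroid markers went the other way, with the lowest sum in knockout 2, 321.2 TPM, against 333.3 to 546.5 TPM in the other knockouts and 343.6 to 767.6 TPM in controls. Of the 6 tested, Alas2, an enzyme of heme synthesis, was 2.15-fold lower in the knockouts (edgeR adjusted p = 0.00407). The share called over all tested genes was 2.06%. The part of these cell types in the mitotic RNA of knockout 2 was not tested.

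**Figure D5:**
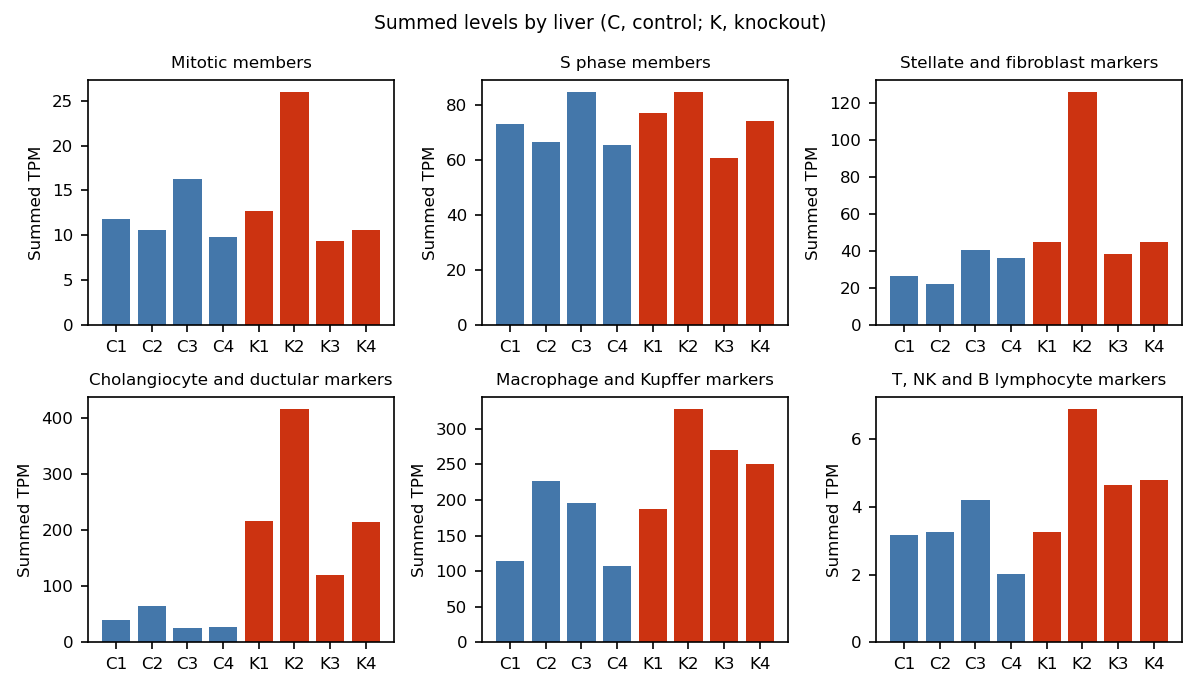
Summed TPM by liver (bars, y axis from 0; C1 to C4 controls in blue, K1 to K4 knockouts in red) for the mitotic genes, the S phase genes and 4 marker lists. K2 has the highest bar for the mitotic genes (26.0 TPM) and for each of the 4 marker lists, and for the S phase genes it stands level with C3.

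The rest of the pathway was read from 6 further lists with 156 genes, of which 135 were tested. By edgeR, 0 of the 135 were called, 19 had an unadjusted p below 0.05 (8 higher and 11 lower, against 18.5% of all tested genes), and DESeq2 called 4, Spc25, Gadd45a, Btc and Jun (against 6.45%). On CPM the groups did not overlap for 10 of the 135, against 11.4% of all tested genes. These counts lie below the background shares. In other DNA replication genes 2 were higher and 4 lower at an unadjusted p below 0.05, out of 42 tested, with a median log2 fold change of 0.092. Orc6 of the origin recognition complex was 1.29-fold higher and Pola1, the catalytic subunit of DNA polymerase alpha, 1.46-fold higher (edgeR adjusted p = 0.237 and 0.251). Chaf1b, a subunit of the histone chaperone CAF-1, was 1.96-fold lower (adjusted p = 0.143).

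Other mitotic genes had a median log2 fold change of 0.083 over 33 tested, and of -0.062 without knockout 2. Spc25, a subunit of the NDC80 kinetochore complex, was at 5.82, 11.1, 7.62 and 7.72 CPM in controls, against 2.74, 5.14, 3.02 and 4.50 CPM in knockouts. Its groups did not overlap, and it was 2.08-fold lower in the knockouts (log2 fold change -1.06, SE 0.25, edgeR adjusted p = 0.0612, DESeq2 adjusted p = 0.00246). For Spc25 knockout 2 was the highest knockout and lay below every control. Tpx2 and Ect2, which act in spindle assembly and cytokinesis, had log2 fold changes of 0.95 and 0.65 (edgeR adjusted p = 0.423 and 0.516), which were 0.20 for Tpx2 without knockout 2 and 0.34 for Ect2 without control 2. Espl1, for the protease separase, was at 113.5 CPM in control 4 and between 0.34 and 0.712 CPM in the other 7 livers, so its log2 fold change of -5.93 (edgeR adjusted p = 0.249) rests on 1 liver.

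Among the E2F, RB and DREAM regulators, 10 of 15 tested had a negative log2 fold change, and the median was -0.173. Their mean log2 CPM was 3.09 to 3.28 in controls and 3.0 to 3.06 in knockouts, without overlap between the groups. By that measure the growth signals and the cholangiocyte and endothelial markers did not overlap either. Tfdp1, the dimer partner of E2F factors, was 1.28-fold lower and Lin9, of the MuvB core, 1.58-fold lower (edgeR adjusted p = 0.156 and 0.146). Rbbp4, a histone-binding subunit of the same core, was 1.18-fold higher (adjusted p = 0.164), and Rbl1, the pocket protein p107, had a log2 fold change of 0.37 (adjusted p = 0.637). On summed TPM the same list was 95.6 to 110.8 in controls and 103.0 to 116.6 in knockouts. That sum covers all 17 genes and is weighted to abundant ones, such as Rbbp4 at 25.9 ± 1.89 and 35.8 ± 4.6 TPM (SD, n = 4).

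For other cyclins, kinases and inhibitors the median log2 fold change was -0.087 over 15 tested, and none had an unadjusted p below 0.05. Cdkn1c (p57) and Ccnd2 (cyclin D2) were at 0.53 and 0.26, Ccnd3 (cyclin D3) and Fbxw7, the ubiquitin ligase subunit that targets cyclin E, at -0.18 and -0.20 (edgeR adjusted p from 0.323 to 0.457). The p53 targets had a median of 0.061 over 16 tested. Gadd45a, a stress-induced growth arrest gene, was at 2.21, 4.32, 1.64 and 1.39 CPM in controls, against 1.08, 1.31, 0.868 and 1.06 CPM in knockouts. It was 2.2-fold lower, without overlap on CPM (edgeR adjusted p = 0.137, DESeq2 adjusted p = 0.0483). On TPM the groups of Gadd45a overlapped, with knockout 2 at 1.78 and control 4 at 1.65. Mdm2, the ligase that degrades p53, was 1.17-fold lower (edgeR adjusted p = 0.23), and Btg2 and Sesn2 had log2 fold changes of 0.48 and 0.35 (adjusted p = 0.346 and 0.393).

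Growth signals of liver regeneration were the list with the highest median of the 6, 0.423 over 14 tested. At an unadjusted p below 0.05, 5 were higher and 0 lower, against 18.5% of all tested genes in either direction. Summed TPM of all 18 genes of this list overlapped, at 166.1 to 255.4 in controls and 185.1 to 301.9 in knockouts. Btc, the EGF family ligand betacellulin, was at 1.08, 1.16, 1.43 and 1.21 CPM in controls, against 3.73, 2.10, 2.70 and 1.67 CPM in knockouts. Jun, an immediate early transcription factor, was at 19.0, 8.88, 21.1 and 17.1 CPM in controls, against 44.9, 25.1, 35.3 and 24.6 CPM in knockouts. Neither gene's groups overlapped. Btc was 2.06-fold and Jun 1.96-fold higher (edgeR adjusted p = 0.0867 and 0.132, DESeq2 adjusted p = 0.017 and 0.0117). With each liver left out in turn, the edgeR adjusted p of Btc ran from 0.0409, without knockout 4, to 0.177, and its log2 fold change from 0.80, without knockout 1, to 1.2. Met, the receptor of hepatocyte growth factor, and Myc had log2 fold changes of -0.27 and -0.71 (adjusted p = 0.329 and 0.582). Knockouts 1 and 3, the livers with the most Btc and Jun RNA, had 12.7 and 9.32 TPM of summed mitotic RNA. The other livers had 9.86 to 26.0 TPM. A link between these signals and mitotic RNA was not tested.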

How the data were processed

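Polyadenylated RNA of 8 mouse livers was sequenced, per the labels' protocols with a stranded TruSeq kit. Per the submitters' processing notes, the build was mm10 and the tools were RSEM 1.2.22, STAR 2.5.1, Trimmomatic 0.36, Picard 1.84 and DESeq2. The deposited tables hold RSEM expected counts, which the authors estimated per gene and which can be fractional, beside TPM, which the authors scaled to gene length and a fixed total. Neither the annotation release nor the strand setting is given in the sources used here. Every gene identifier matched GENCODE M21, which gave the coordinates.

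Groups and numbers came from the titles, and the labels give no batch. Deviations of same-numbered livers correlated at 0.238, 0.017, -0.023 and -0.044, so numbers were not treated as pairs. No 2 livers of a group agreed within sampling noise.

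Expected counts were rounded and fitted with edgeR 4.0.16 in R 4.3.3: filterByExpr (minimum count 10, total 15), TMM factors, robust quasi-likelihood test, two-sided, Benjamini-Hochberg adjustment over 13303 genes, threshold 0.05. The SE and 95% interval came from the fold change and the F statistic. A prior count of 2 entered log2 CPM. Exact permutation tests compared mean CPM over all 70 splits. Alternatives were RLE factors, library size alone, other filters, DESeq2 1.42.0, limma 3.58.1 (voom, and trend on log2(TPM + 1) and log2(TPM + 0.1)), no robust estimation, a replicate block, and livers left out. The steps were tested on simulated data. Figures used matplotlib 3.10.9.

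The members and lists were chosen with earlier results of these data known. All members were accounted for. The rule for values in every liver took members without overlap, of smallest p, and of highest and lowest TPM in each role, and for each other list the 2 genes of smallest p in each direction. Further members given liver by liver, and Col3a1, were chosen after their values were seen. Some results that this rule would name are not reported here.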

Additional observations from a re-analysis of the deposited data

Results flagged for a closer look

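Some livers stood apart from the other 3 of their group by Dixon's test at its 95% level. It was applied to the highest or lowest liver of each group of 4 for 57 genes and the level of each list. Of 180 groups in all, 20 passed, where chance gives about 1 in 20 for normally distributed values. CPM and summed TPM were not log-transformed for it and need not be normal at low counts. Of the genes, 24 were picked by smallest p, so the number that passed cannot be set against that rate. The groups are not independent, since genes share livers.

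Knockout 2 was set apart upward for 5 mitotic members, Espl1 and 3 list levels. These were Ccnb1 (1.78 CPM, others 0.225 to 0.477), Ccnb2 (1.90 CPM, others 0.503 to 0.584), Cdk1 (3.16 CPM, others 1.02 to 1.35), Cdc20 (2.06 CPM, others 0.341 to 0.494) and Plk1 (0.831 CPM, others 0.228 to 0.314). The separase gene Espl1 was also high there (0.712 CPM, others 0.366 to 0.404). The list levels were the stellate and fibroblast markers (mean log2 CPM 4.51 and summed TPM 126.4) and the neutrophil markers (summed TPM 4.68).

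Among the controls, control 3 was high for Plk1 (0.716 CPM, others 0.243 to 0.316) and Mcm2 (6.07 CPM, others 3.25 to 3.43). Control 1 was low for Ccnd1 (17.7 CPM, others 37.5 to 37.8) and for the mean of the endothelial markers (3.97 on the log2 CPM scale). Control 2 was high for Ccne1 (5.14 CPM, others 2.04 to 2.39), low for Btg2 (4.17 CPM, others 8.94 to 9.85) and high for the neutrophil markers (summed TPM 3.19). Control 4 was high for Espl1 (113.5 CPM, others 0.34 to 0.632), with 2618 expected counts against 7 to 15 in the other controls. Espl1 overlaps Gm49480 on the other strand.

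Among the other knockouts, knockout 4 was high for E2f8 (21.2 CPM, others 1.69 to 4.75) and for the growth signals (summed TPM 301.9, others 185.1 to 202.8). Knockout 1 was low for the mean of the E2F, RB and DREAM regulators (3.0, others 3.05 to 3.06 on the log2 CPM scale).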

How the results depend on the processing

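No result changed direction past a threshold. DESeq2 called 409 genes higher and 449 lower, 1 member and 4 genes of the other pathway lists. Limma on log2(TPM + 1) and log2(TPM + 0.1) called 86 and 84 genes lower. The fit with the replicate block, whose numbers do not pair the livers, called 98 genes lower and 1 other pathway gene (Spc25), and no member. Without a low-count filter, and without control 2 and knockout 4 together, 1 other pathway gene was called, and the latter fit called 185 genes higher and 246 lower.

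The median of the growth signals was 0.537 without a filter, 0.3 with a filter of 1 CPM, 0.538 with voom, 0.312 and 0.595 on the TPM scales and 0.511 with the replicate block. That of the E2F, RB and DREAM regulators was -0.106 by library size and -0.018 and -0.021 on the TPM scales, and that of other cyclins was 0.035 and 0.040 there. On log2(TPM + 0.1) the median of all genes was 0.116. Relative to it the mitotic, S phase and growth signal medians were 0.112, -0.077 and 0.479. On log2(TPM + 1), relative to the median of all genes there, the same 3 medians were 0.016, -0.045 and 0.221. In the main fit they were 0.182, 0.013 and 0.419 relative to all genes. With library size, log2(TPM + 1) and log2(TPM + 0.1), relative to all genes (medians 0.073, 0.091 and 0.116), the E2F, RB and DREAM median was -0.179, -0.109 and -0.137, and that of other cyclins was -0.056 and -0.076 on the TPM scales.

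With each liver left out in turn, 46 to 167 genes were called higher, 61 to 205 lower, 0 to 0 members and 0 to 1 other pathway genes. The medians were -0.209 to 0.389 for mitotic members, -0.059 to 0.186 for S phase members, -0.224 to -0.072 for E2F, RB and DREAM regulators and 0.297 to 0.501 for growth signals. The cause of these shifts was not tested.

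With 4 livers a group and mitotic genes at 2 to 163 counts, intervals of single genes often reach a 2-fold difference. Past 2-fold, edgeR called some genes, such as Epcam (2.8-fold higher, adjusted p = 0.0216). It did not call others, such as Ccne1 (2.3-fold lower, adjusted p = 0.131) and Spc25 (2.08-fold lower, adjusted p = 0.0612). A gene without a call is thus not shown to be unchanged, and a 2-fold change is not excluded where its interval reaches that far. Reads of overlapping genes cannot be separated if the counting ignored strand. Counts of 1 bulk sample do not say which cell type held the RNA.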
